A study of Mus musculus with 7 samples.

Results

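The genes described here encode enzymes that add methyl groups to lysine 4 of histone H3 (H3K4) or remove them. They were chosen by function, from a list of names, and number 10 of the 49943 RefSeq genes on chromosomes 1 to 19, X and Y. The methyltransferases are Kmt2a, Kmt2b, Kmt2c, Kmt2d, Setd1a and Setd1b, and the demethylases are Kdm1a, Kdm1b, Kdm5a and Kdm5b. What was measured is the H3K4me1 mark, the monomethylated form of H3K4, on the chromatin of these genes. It is not their expression, and the transcriptome data of the series were not analysed here.

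The cells were single mouse zygotes, the fertilised egg before its first division. Females received 5 IU of pregnant mare serum gonadotropin and, after 46 to 48 h, 5 IU of human chorionic gonadotropin, and zygotes were taken at 23 after the latter, a value given with no unit. The strain and age of the animals are not given for the H3K4me1 samples in the sources used here, and no treatment was applied. H3K4me1 was profiled by CUT&Tag, in which an antibody brings the Tn5 transposase to the marked chromatin so that the fragments it cuts can be sequenced. Of the 7 samples in the series, 2 carry H3K4me1 fragments, each from the zygotes of 1 mouse.

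Both H3K4me1 samples are held in 1 table, and the names of its zygote libraries do not say which mouse they came from. The pool was therefore treated as 1 sample, with no test and no p-value, and intervals are exact 95% Poisson intervals that cover counting error only. Of 16 libraries, 14 reached the minimum of 5000 fragments over the autosomes and sex chromosomes, with 7106 to 197312 fragments each (median 96240) and 1404305 in all. A library is called by the number in its name, 4 or 5, and its cell number, and 3 of the 14 are named 4. The level of a gene is its fragments per bp, in a window that adds 2.5 kb to both gene ends, divided by the autosomal mean, which was 5.62 fragments per 10 kb. The label of the cells was set beside egg genes, 5 of 10 of which had an interval above 1, while Ooep, with 0 fragments, had one below. Of 8 cumulus and granulosa cell genes, 3 had theirs above 1, and Fshr, at 0.669 (0.533 to 0.829), had its interval below. Of 6 sperm genes, 1 had its interval above 1 and 0 had it below. For genes at large, meaning the autosomal protein-coding ones, these shares were 29.5% above and 7.16% below. A mark over a gene does not show that the gene is expressed, so these counts do not identify the cells.

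H3K4 is methylated by large complexes of the COMPASS family, each built around 1 catalytic subunit. Kmt2c and Kmt2d, also known as MLL3 and MLL4, are the main writers of H3K4me1 at enhancers. Setd1a and Setd1b write most H3K4me3 at active promoters, and Kmt2a and Kmt2b, also known as MLL1 and MLL2, bind CpG-rich DNA and act at chosen promoters. Kmt2b is needed in the oocyte, where H3K4 methylation spreads over broad domains. Kdm1a (LSD1) and Kdm1b (LSD2) are amine oxidases that remove the mono- and dimethyl forms, and Kdm1b clears H3K4 methylation in oocytes so that maternal imprints can be set. Kdm5a and Kdm5b belong to the Jumonji family and remove the tri- and dimethyl forms.

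Promoter DNA was examined first, because several of these enzymes are drawn to CpG-rich starts. RefSeq start sites of GRCm38.p6, the assembly behind mm10, were matched for 7 of the 10 genes, with no entry used for Kmt2b, Setd1b and Kdm5a. The 250 bases before the start are printed 5′ to 3′ on the strand of the gene for 3 of them, with each CG in capitals. They were picked to show the gene with the most CG, the gene with the fewest, and a gene with fragments at its start.
Kmt2c (minus strand, chr5:25498784-25499033): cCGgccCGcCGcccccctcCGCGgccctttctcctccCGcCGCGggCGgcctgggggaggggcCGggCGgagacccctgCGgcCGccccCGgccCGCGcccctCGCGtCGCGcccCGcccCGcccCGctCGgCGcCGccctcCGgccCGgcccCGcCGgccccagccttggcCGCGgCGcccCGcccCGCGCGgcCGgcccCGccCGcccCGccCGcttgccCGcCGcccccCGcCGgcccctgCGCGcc
Kdm5b (plus strand, chr1:134559928-134560177): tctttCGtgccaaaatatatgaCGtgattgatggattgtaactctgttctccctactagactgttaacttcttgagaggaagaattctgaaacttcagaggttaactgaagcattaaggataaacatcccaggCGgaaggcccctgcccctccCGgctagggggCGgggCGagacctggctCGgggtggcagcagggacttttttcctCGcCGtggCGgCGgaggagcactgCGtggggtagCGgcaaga
Kmt2a (minus strand, chr9:44881290-44881539): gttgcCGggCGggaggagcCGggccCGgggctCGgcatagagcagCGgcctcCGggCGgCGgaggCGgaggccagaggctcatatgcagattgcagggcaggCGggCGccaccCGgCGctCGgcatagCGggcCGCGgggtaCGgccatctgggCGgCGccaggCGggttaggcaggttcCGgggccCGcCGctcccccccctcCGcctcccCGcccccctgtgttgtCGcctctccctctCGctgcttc
The motif searched was CG, which reads the same on both strands. It occurred 48 times before Kmt2c, 29 times before Kmt2a and 13 times before Kdm5b, and the 4 other genes had 21 to 26. Among 16457 autosomal protein-coding promoters of the same length, 93.0% held at least 1 CG, and the median was 10. All 7 genes thus had more CG than the median promoter, and Kmt2c had more than 99.8% of promoters.

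Few H3K4me1 fragments lay at these starts. Within 2.5 kb of the start, no fragment was found at Kmt2c or Kdm5b, where 3 fragments would have given a level of 1.07 and the interval around 0 reaches 1.31. Kdm1b had 1 fragment, Kdm1a and Setd1a had 2 each, and Kmt2a and Kmt2d had 6 each. None of the 7 intervals lay above or below 1, against 9.93% above and 0% below among the starts of autosomal protein-coding genes. A window of this size holds too few fragments for an interval below 1. Summed over the 7 genes, the level at the start was 0.864 (0.503 to 1.38) from 17 fragments. That of all 16457 starts was 1.13 (1.12 to 1.14). Within 1 kb the sums were 1.14 (0.523 to 2.17) for the 7 genes and 1.09 for all starts. Within 5 kb they were 1.19 (0.878 to 1.59) and 1.19. At each window the interval of the 7 genes held the level of all starts.

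With 5 kb on each side, the share of all starts with an interval above or below 1 was not counted. In this window around the start, Kmt2c had 1 fragment and a level of 0.178 (0.00450 to 0.991), with an upper limit close to 1. Kmt2d, whose annotated start lies inside the upper end of the gene, had 13 fragments there and a level of 2.31 (1.23 to 3.95). Of these 13, library 5-4 gave 7, and it gave all 5 fragments within 1 kb, each with its own pair of ends. Without library 5-4 the level within 5 kb of the Kmt2d start was 1.24, and within 2.5 kb it fell from 2.13 to 0.413, so that the high value at this start comes from 1 zygote library.

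Over whole genes with 2.5 kb at both ends, 3 of the 10 had an interval above 1, namely Kmt2d, Kmt2b and Kmt2a, and 0 had an interval below 1. Over the gene body alone, or with 1 kb or 5 kb on each side, the 3 were Kmt2d, Kmt2b and Setd1a. The intervals of 29.5% of all 20665 autosomal protein-coding genes lay above 1 and those of 7.16% lay below, so the share among the 10 is that of genes at large. Among 8726 genes of a length within the range of the 10, the shares were 38.4% and 8.71%. The median level of the 10 was 1.28, and that of all autosomal protein-coding genes was 1.21. Summed over the 10 genes, 460 fragments gave a level of 1.15 (1.04 to 1.26). The sum over all autosomal protein-coding genes was 1.175 (1.173 to 1.178). Over those in the length range of the 10 it was 1.265 (1.261 to 1.269). The summed 10 genes were thus not raised over genes at large, and their interval ended just under the level of genes in the length range. Of the 460 fragments, Kmt2c, the longest gene, gave 111, so the sum leans on it.

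**Figure D1:**
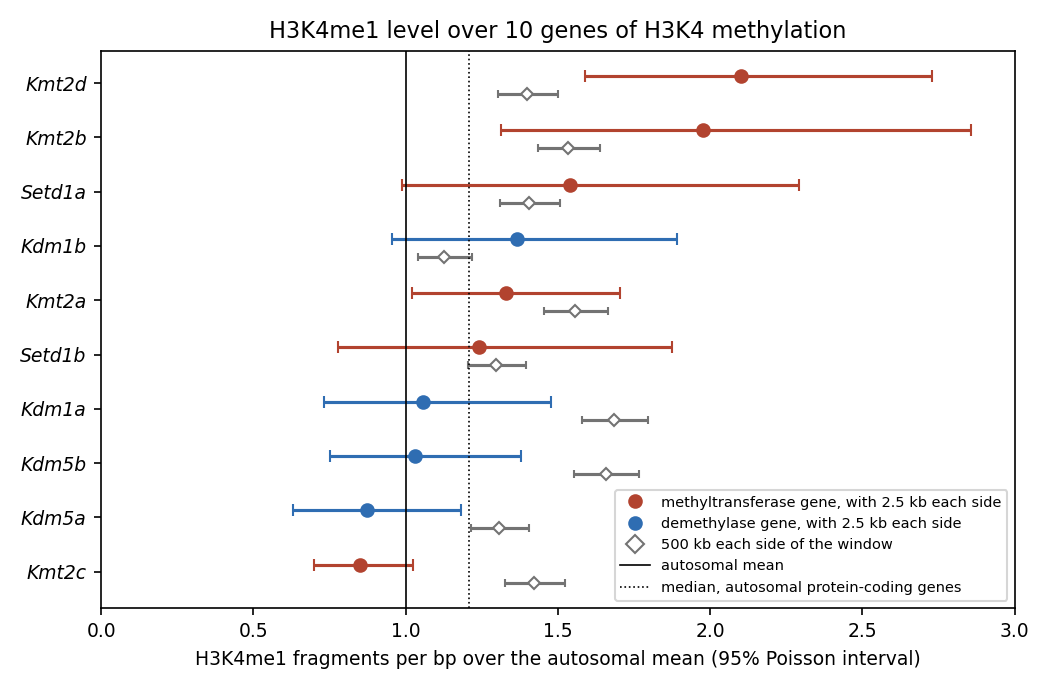
H3K4me1 level of the 10 genes (x axis, fragments per bp over the autosomal mean; circles, gene with 2.5 kb each side; diamonds, the 500 kb on each side of that window; bars, 95% Poisson intervals). Levels run from 0.851 at Kmt2c to 2.10 at Kmt2d, while the surroundings of all 10 genes lie above the autosomal mean. The share of all genes with such surroundings was not counted.

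Kmt2d, an enhancer monomethyltransferase on chromosome 15 (98831669 to 98874077), had the highest level of the 10. Its 56 fragments came from 13 of 14 libraries and gave a level of 2.10 (1.59 to 2.73), higher than that of 88.9% of autosomal protein-coding genes. Over the 13 libraries of at least 20000 fragments, the lowest count was 0, in library 5-5, the median was 3 and the highest was 16, in library 5-4. The levels ran from 0, where 3 fragments would have given 1.50, to 4.92 in library 5-9, with a median of 1.76. In 9 of the 13 libraries the level was above 1, and in 3 the interval was. Without library 5-4 the pooled level was 1.74 (1.25 to 2.37).

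The fragments of Kmt2d were spread over the gene. In bins of 5 kb along all 10 genes, 10 of 139 had an interval above 1 and 12 had no fragment, 7.19% and 8.63%, where such bins made up 10.8% and 10.3% over autosomal protein-coding genes. Each of the 9 bins of Kmt2d held 4 to 7 fragments, from 2 to 5 libraries, and had a level of 1.42 to 2.49. Away from both gene ends, by more than 2.5 kb, the level was 2.00 (1.44 to 2.70). The surroundings within 500 kb had a level of 1.40 (1.30 to 1.50), and Kmt2d lay 1.50 times (1.12 to 1.97) above them. It was the only 1 of the 10 whose interval lay above its surroundings, as was that of 13.1% of autosomal protein-coding genes. The window also takes in part of Prkag1, the next gene, which encodes a subunit of the energy sensor AMPK.

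Kmt2c, its paralog on chromosome 5 (25271795 to 25498855), had the lowest level of the 10, 0.851 (0.700 to 1.02) from 111 fragments of 13 libraries. At 227061 bp it is also the longest of them. Library counts ran from 2 to 14 fragments with a median of 9, and the level was 0.306 in library 5-5, the lowest, 0.796 at the median and 1.89 in library 5-1, the highest. Only 3 of the 13 libraries had a level above 1. Of its 46 bins of 5 kb, 7 held no fragment, 21 lay above 1, and the highest were a pair of bins with 7 fragments each, 67.1 and 102 kb into the gene from its start side. No fragment lay within 2.5 kb of either gene end. The surroundings had a level of 1.42 (1.32 to 1.52), and Kmt2c lay at 0.599 times (0.486 to 0.731) that level.

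The 2 enhancer methyltransferase genes therefore stood at opposite ends of the order. The level of Kmt2d exceeded that of Kmt2c by 2.47 times (1.76 to 3.44), and it was higher in 9 of 13 libraries and lower in 4. The ratio of Kmt2c to Kmt2d was 0.405, and leaving out 1 library moved it from 0.371 to 0.501. It was 0.587 (0.254 to 1.52) in libraries named 4 and 0.375 in libraries named 5. Among the 5 pairs of paralogs compared, this was the only 1 whose interval did not hold 1 over the pool of 14 libraries and windows with 2.5 kb at both ends.

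Kmt2b, a CpG-binding methyltransferase on chromosome 7 (30568855 to 30589056), had 28 fragments of 10 libraries and a level of 1.98 (1.31 to 2.86). This value leaned on a single library. Library 5-3 held 9 of the fragments, for a level of 9.95 (4.55 to 18.9) in that library, and library 5-4 held 7, while the median library held 1 and 3 of 13 held none. Without library 5-3 the level of Kmt2b was 1.43 (0.863 to 2.24), and its interval then held 1. Within Kmt2b all 5 bins of 5 kb lay above 1, with 4 to 7 fragments of 3 to 5 libraries each. The genes around it, 58 protein-coding genes within 500 kb, are the densest surroundings of the 10 and had a level of 1.53 (1.43 to 1.64). Kmt2b lay 1.29 times (0.851 to 1.88) above them.

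Kmt2a, its paralog on chromosome 9 (44803355 to 44881352), had 62 fragments of 11 libraries and a level of 1.33 (1.02 to 1.70). Library counts ran from 0 to 11 with a median of 5, and 8 of 13 libraries lay above 1. Library 5-3, the highest at Kmt2b, had 0 fragments at Kmt2a, where 3 would have given a level of 1.01. The interval of Kmt2a is close to 1 at its lower end and held 1 at every other window. It was 1.28 (0.965 to 1.66) over the gene body, 1.31 (0.999 to 1.69) with 1 kb on each side and 1.29 (0.997 to 1.65) with 5 kb. It also held 1 with libraries weighted equally, at 1.20 (0.901 to 1.61), and without library 4-5, 5-2, 5-4, 5-5 or 5-6. Of its 16 bins, 13 lay above 1, none had an interval above 1, and none was empty. The surroundings were higher, at 1.56 (1.46 to 1.66), so that Kmt2a lay at 0.854 times (0.649 to 1.11) their level. The ratio of Kmt2a to Kmt2b was 0.672 (0.424 to 1.09), and Kmt2a was the higher of the pair in 7 of 13 libraries. This ratio moved with the libraries and the window. Its interval left out 1 with 5 kb on each side, at 0.594 (0.390 to 0.916), without library 5-5, at 0.596 (0.368 to 0.986), without library 5-6, at 0.586 (0.364 to 0.960), and in libraries named 5, at 0.562 (0.345 to 0.934). Without library 5-3 it was 0.991 (0.585 to 1.75), and in libraries named 4, with 1 fragment at Kmt2b, it was 3.64 (0.539 to 155.8).

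**Figure D2:**
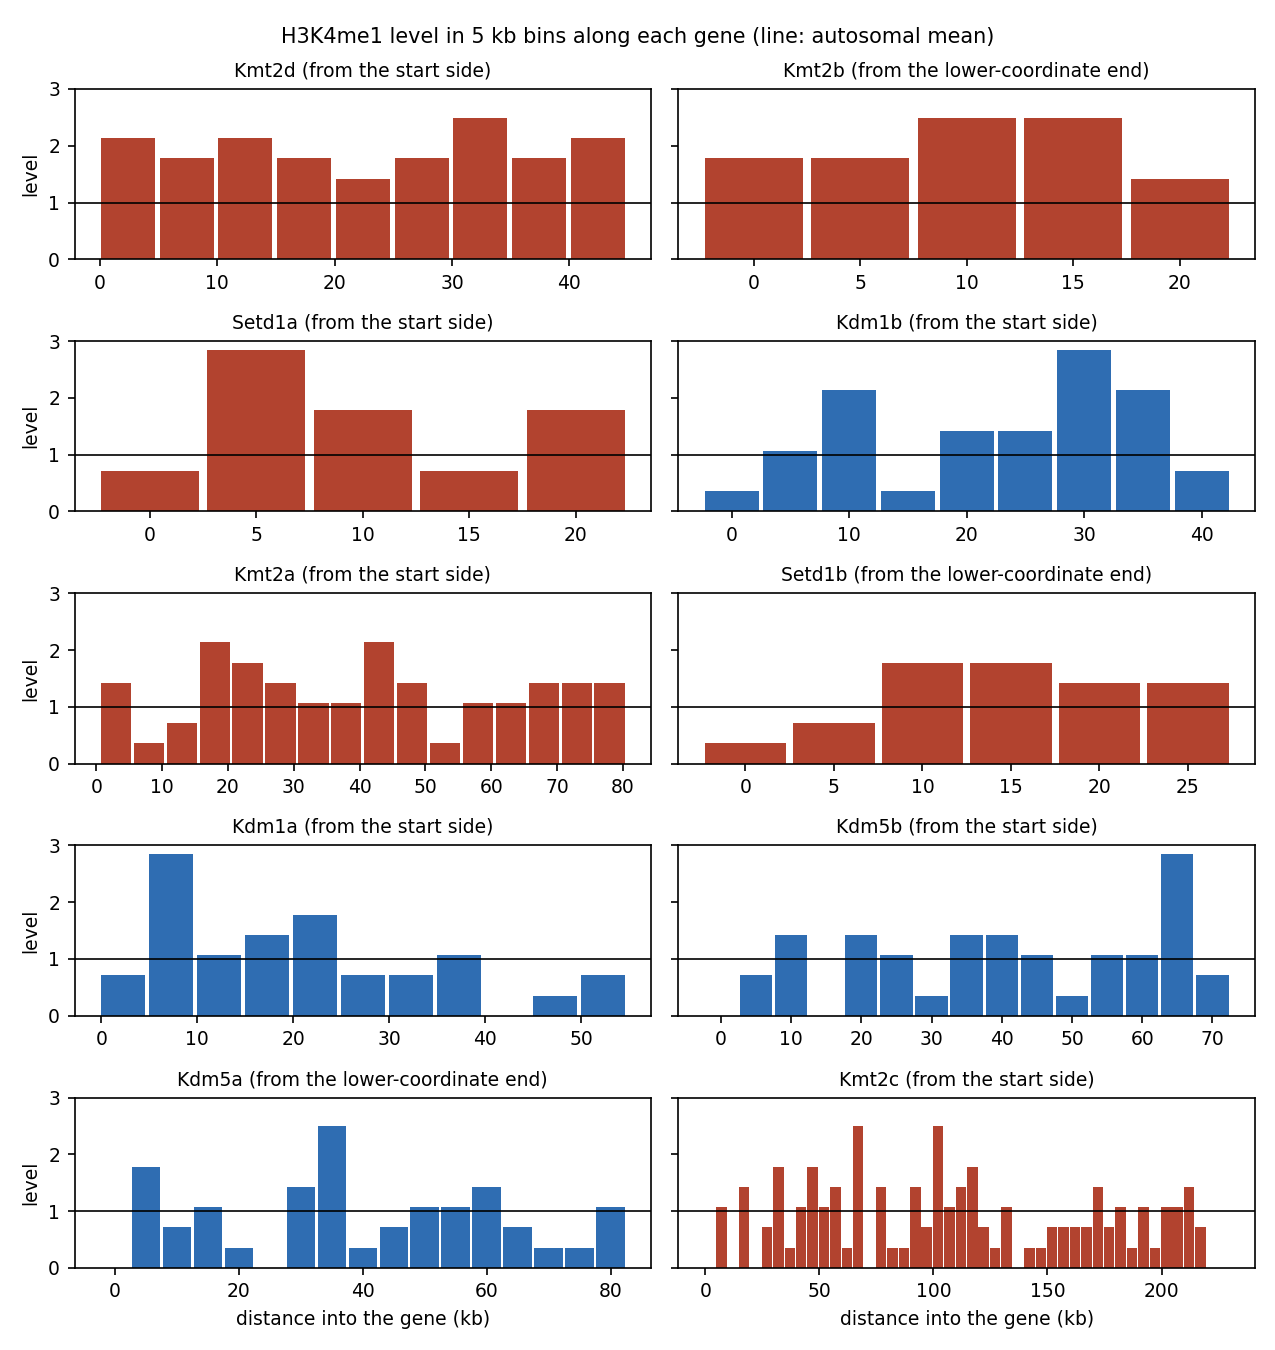
H3K4me1 level in whole bins of 5 kb along each gene, in order of the pooled level (x axis, distance into the gene in kb, from the start side where the promoter table gives the strand and otherwise from the lower-coordinate end; y axis, fragments per bp over the autosomal mean; line, autosomal mean; red, methyltransferase genes; blue, demethylase genes). All 9 bins of Kmt2d and all 5 of Kmt2b lie above the line, while 7 of the 46 bins of Kmt2c are empty.

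Setd1a and Setd1b encode the catalytic subunits of the complexes that write most H3K4me3. Setd1a, on chromosome 7 (127777389 to 127800122), had 24 fragments of 9 libraries and a level of 1.54 (0.986 to 2.29). Its interval lay just under 1 at the lower end, and lay above 1 over the gene body, at 1.64 (1.02 to 2.51), and with 5 kb on each side, at 1.68 (1.14 to 2.39). Library counts ran from 0 to 5 with a median of 2, and 4 of 13 libraries had none. The bin from about 2.5 to 7.5 kb after the start held 8 fragments of 6 libraries, a level of 2.85 (1.23 to 5.61), where the 5 kb around the start held 2.

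Setd1b, on chromosome 5 (123142040 to 123168630), had 22 fragments of 8 libraries and a level of 1.24 (0.776 to 1.88). It was the only gene of the 10 whose intervals in libraries named 4 and in libraries named 5 did not overlap. The 3 libraries named 4 gave 11 fragments and a level of 3.48 (1.74 to 6.22), and the 11 named 5 also gave 11 fragments and a level of 0.754 (0.376 to 1.35). Of all autosomal protein-coding genes, 2.15% had intervals of the 2 sets that did not overlap. Library 4-2 alone gave 6 of the fragments, and without it the pooled level was 0.946 (0.541 to 1.54). Libraries 5-4 and 4-2 held 6 fragments each, and 5 of the 13 libraries held none. The ratio of Setd1a to Setd1b was 1.24 (0.667 to 2.32), with Setd1a higher in 7 of 13 libraries, and it was 0.414 (0.0962 to 1.40) in libraries named 4.

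**Figure D3:**
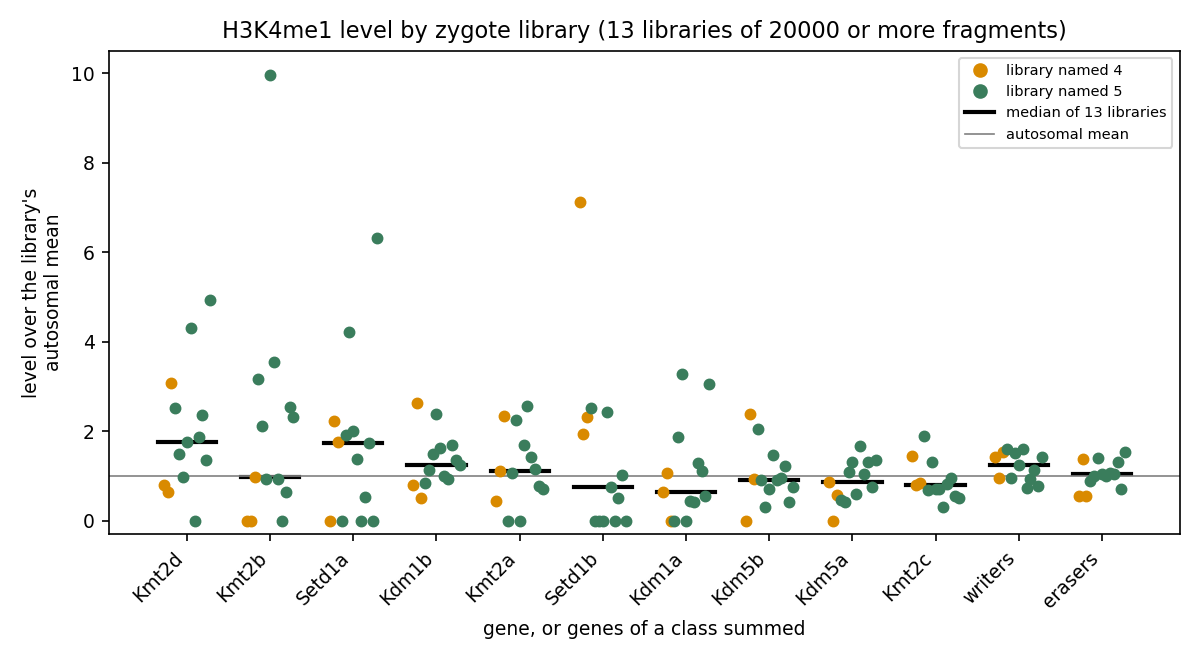
H3K4me1 level of each gene, and of the methyltransferase genes (writers) and demethylase genes (erasers) summed, in the 13 libraries of at least 20000 fragments (y axis, level over the library's own autosomal mean; points, libraries, orange where named 4 and green where named 5; black bars, medians; grey line, autosomal mean). The highest points are library 5-3 at Kmt2b, with 9.95, and library 4-2 at Setd1b, with 7.11, while the summed classes stay between 0.548 and 1.61.

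None of the 4 demethylase genes had an interval above or below 1. Kdm1b, the oocyte demethylase on chromosome 13 (47043373 to 47085279), had the highest level of them, 1.37 (0.956 to 1.89), from 36 fragments of 13 libraries. Each of the 13 deeper libraries held 1 to 6 fragments of it, with levels of 0.520 to 2.63, a median of 1.24 and 9 libraries above 1. At no base did a library have more than 1 fragment. The start side of Kdm1b held 1 fragment, and the highest bin lay 30 kb into the gene, with 8 fragments of 5 libraries and a level of 2.85 (1.23 to 5.61). Away from both ends the level was 1.54 (1.06 to 2.18). Kdm1b has only 8 protein-coding genes within 500 kb, the fewest of the 10, and the lowest surroundings, 1.13 (1.04 to 1.22). Its window overlaps Dek and Tpmt, and fragments there were counted for Kdm1b too. The windows of all 10 genes take in all or part of at least 1 other gene. Among these are Igflr1 and Zbtb32 at Kmt2b, Hsd3b7 and Orai3 at Setd1a, Ttc36 at Kmt2a and Luzp1 at Kdm1a.

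Kdm1a, on chromosome 4 (136550533 to 136602787), had 34 fragments of 11 libraries and a level of 1.06 (0.732 to 1.48). Library 5-2 held 8 of them, for a level of 3.28 (1.41 to 6.45) in that library, and the median library held 2. The highest bin of Kdm1a lay 7.25 kb into the gene, with 8 fragments of 4 libraries. The ratio of Kdm1a to Kdm1b was 0.774 (0.470 to 1.27), and Kdm1b was the higher in 9 of 13 libraries.

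Kdm5b, on chromosome 1 (134560178 to 134632878), had 45 fragments of 12 libraries and a level of 1.03 (0.752 to 1.38). Library counts ran from 0 to 9 with a median of 3, and 4 of 13 libraries lay above 1. Its highest bin, 65.0 kb into the gene, held 8 fragments of 7 libraries, the widest spread over libraries of any bin in the 10 genes. Kdm5a, on chromosome 6 (120364099 to 120444574), had 42 fragments of 12 libraries and a level of 0.874 (0.630 to 1.18), with library levels up to 1.66. The ratio of Kdm5a to Kdm5b was 0.848 (0.544 to 1.32).

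Kdm1a, Kdm5b, Kdm5a and Kmt2c had levels below their surroundings with intervals that left out 1. Kdm5b lay at 0.622 times (0.451 to 0.839) its surroundings, whose level was 1.66, Kdm1a at 0.627 times (0.432 to 0.882) and Kdm5a at 0.669 times (0.478 to 0.914). That is 4 of the 10 genes, where 7.47% of all autosomal protein-coding genes, and 10.7% of those in the length range of the 10, lay below their surroundings. The surroundings of all 10 genes lay above the autosomal mean, from 1.13 at Kdm1b to 1.68 at Kdm1a. How many of all genes have such surroundings was not counted, so this is not shown to be particular to the 10. Autosomal protein-coding genes themselves summed to a level of 1.175. Kdm1a, with a level of 1.06, and Setd1b, with 1.24, had surroundings of 1.68 and 1.30. Setd1b lay at 0.955 times (0.595 to 1.46) its surroundings. That interval overlaps the one of Kdm1a, so the positions of these genes in their neighbourhoods were not told apart.

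In the order of the 10 levels, Kmt2d, Kmt2b, Setd1a, Kdm1b, Kmt2a, Setd1b, Kdm1a, Kdm5b, Kdm5a and Kmt2c, no 2 neighbours differed beyond counting error. Of all 45 pairs, 15 had a ratio whose interval left out 1, and each of the 15 had Kmt2d, Kmt2b, Kmt2c or Kdm5a as a partner. The share of such pairs among other genes was not counted, so this is not shown to be particular to the 10. Longer genes of the 10 had lower levels, with Spearman's rho of -0.77 between level and gene length over the 10 genes, against -0.07 over the 8726 genes in their length range. The 10 points share the same libraries, and rho between level and the count of neighbouring protein-coding genes (500 kb each way) was 0.67, so gene length and gene density cannot be told apart here.

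Summed by role, the 6 methyltransferase genes had 303 fragments and a level of 1.21 (1.07 to 1.35), and the 4 demethylase genes had 157 fragments and a level of 1.04 (0.888 to 1.22). The ratio of the sums was 1.15 (0.949 to 1.41), and the methyltransferase genes were the higher in 7 of 13 libraries. The sums of the classes were thus not told apart. Kmt2c, the longest and lowest of the 10, gave 111 of the 303 methyltransferase fragments, so that sum leans on 1 gene. The median level by gene was 1.43 for the 6 methyltransferase genes and 1.04 for the 4 demethylase genes. The fragments were of ordinary length. Their median was 309.5 bp over the 10 genes and 322 bp over the autosomes, and those of 120 to 270 bp, about 1 nucleosome, made up 35.9% (31.5% to 40.4%) and 35.7% (35.6% to 35.7%).

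The enzymes work with partner subunits, and 35 further genes of H3K4 methylation, chosen by function, were measured in the same way. Of these, 9 had an interval above 1 and 2 had one below, 25.7% and 5.71%, with a median level of 1.17. Among all autosomal protein-coding genes the shares were 29.5% and 7.16% and the median 1.21, so the share above 1 is near that of genes at large. Of the 35 genes, 4 lie on the X or Y, and both genes with an interval below 1 are among them. The shares below 1 are therefore not compared like for like. Among the 16 COMPASS subunits, 4 (25%) had an interval above 1 and the median was 1.19. Wdr5, the shared subunit that all 6 methyltransferases need, led them with 2.29 (1.59 to 3.20). Among the 9 partners of LSD1 and LSD2, 3 (33.3%) had an interval above 1. Rcor2, a CoREST scaffold that joins LSD1 to chromatin, had the highest level of the 35, 2.496 (1.48 to 3.94), from 18 fragments.

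Among other enzymes of H3K4 methylation, Setd7, a monomethyltransferase, had 2.04 (1.55 to 2.64). Prdm9, which marks sites of meiotic recombination, had 0.676 (0.324 to 1.24). Smyd1, a muscle methyltransferase, had 0.734 (0.460 to 1.11). The 2 genes with an interval below 1 lie on the sex chromosomes. Kdm6a, a subunit of the Kmt2c and Kmt2d complexes on the X, had 0.545 (0.386 to 0.748), and Kdm5d on the Y had 0.312 (0.143 to 0.593) from 9 fragments of 3 libraries. The X as a whole had a level of 0.554 (0.549 to 0.558), so that Kdm6a lay at 0.984 times (0.697 to 1.35) the mean of its own chromosome. The Y had a level of 0.0280 (0.0265 to 0.0295). Over the mean of the Y, Kdm5d lay at 11.2 times (5.10 to 21.3), the opposite direction to its level over the autosomes. That mean rests on 1426 fragments over the span from the first to the last fragment of the Y. No allowance was made for sequence where reads cannot be placed, so the value does not show that Kdm5d is enriched. What sets it was not tested. Kdm5c, the X-linked relative of Kdm5a and Kdm5b, had a level of 1.05 (0.707 to 1.50) over the autosomes. It lay at 1.89 times (1.28 to 2.70) the mean of the X, and Hcfc1, a COMPASS subunit on the X, at 3.08 times (2.05 to 4.45). The share of all X genes above the mean of the X was not counted, so this is not shown to be particular to either gene.

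**Figure D4:**
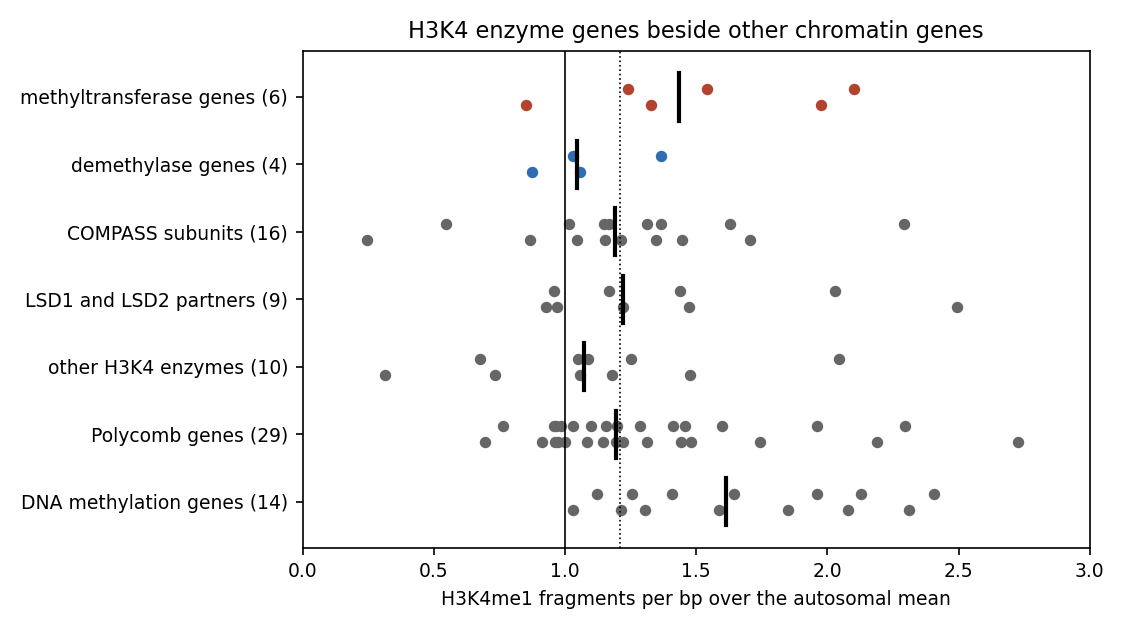
H3K4me1 level of the 6 methyltransferase and 4 demethylase genes beside their partners and 2 other groups of chromatin genes (x axis, fragments per bp over the autosomal mean; points, genes; black bars, medians; solid line, autosomal mean; dotted line, median of autosomal protein-coding genes). The DNA methylation genes have the highest median, 1.61.

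The other groups of chromatin genes give a scale. The 29 Polycomb genes had a median of 1.19, with 7 intervals above 1 (24.1%) and 0 below. The 14 genes of DNA methylation and demethylation had a median of 1.61, with 8 intervals above 1 (57.1%) and 0 below. Among all autosomal protein-coding genes, 29.5% lay above 1 and 7.16% below. Summed, these 14, of which 1 lies on the X or Y, had a level of 1.60 (1.48 to 1.72), against 1.15 (1.04 to 1.26) for the 10 H3K4 genes. Dnmt1, the maintenance methyltransferase, had 2.13 (1.66 to 2.69), a level like that of Kmt2d.

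Across the 13 deeper libraries, the summed level of the 10 genes was lowest in library 5-8, at 0.761, and highest in library 5-2, at 1.48. The median was 1.16, and 9 libraries lay above 1. Libraries named 4 gave 1.13 (0.899 to 1.41), close to the 1.15 (1.04 to 1.27) of those named 5.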

How the data were processed

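H3K4me1 CUT&Tag fragments of single mouse zygotes were analysed. The deposited table lists 1 fragment per line with its library, and its last column, a count, is 1 in every line, so lines were counted here for each region. The reads carry no molecular identifier in the table. The genome build is mm10, per the submitters' processing notes. The aligner, duplicate removal and filters were not given in the sources used. Per the labels, H3K4me1 was profiled in 2 batches, and the table pools them. There was no control library to give a background.

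Libraries with at least 5000 fragments were pooled and fragments placed by their midpoint. Genes came from RefSeq for GRCm38.p6, and start sites from its promoter table. The 10 genes and the other lists were chosen with earlier results of these data known. All 10 genes were named, with, of the 35 partner genes, the 3 highest and 3 lowest levels among those with at least 10 fragments and any with an interval below 1. The 4 partner genes on the X or Y were named too. The genes most like the 10 across libraries are not reported here. Levels have exact 95% Poisson intervals, shares exact Clopper-Pearson intervals and ratios exact conditional binomial intervals (Python 3.11.15, scipy 1.17.1). Counting was checked on simulated fragments. The window, library minimum, scale, fragment placing and lengths, weights and pooled libraries were varied. The shares of all genes beyond their surroundings or differing between library names, the Kmt2d start by library, the counts of libraries within pairs and the relation with gene length were chosen after seeing the data. The H3K27me3 and RNA samples were left out, since only H3K4me1 fragments bear on these values.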

Additional observations from a re-analysis of the deposited data

How the results depend on the processing

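Under 30 alternatives, 289 of 300 gene levels stayed within their 95% intervals, 9 left them and 2 reversed. Several alternatives were near-copies of the main run, so these counts overstate how far the levels were tested. Keeping only fragments under 1000 bp left the levels of all 10 genes unchanged. The higher library minimum gave the same levels as leaving out library 5-11. For Kmt2d, at 2.102, using all libraries gave 2.101 and counting identical ends once gave 2.107. Taken over the surroundings within 500 kb, the median level of the 10 genes was 0.905, Kmt2a lay at 0.854, 1 gene had an interval above 1 and 4 had one below. With the median of 100 kb bins as the scale, 5 genes had an interval above 1. In libraries named 4 alone, Kmt2b lay at 0.396 (0.0100 to 2.21), from 1 fragment, and 1 gene, Setd1b, had an interval above 1. Without library 4-2, 5-1 or 5-2, 1 gene, Kmt2c, had an interval below 1, with levels of 0.821, 0.803 and 0.813. Leaving out 1 library gave 2 to 4 genes with an interval above 1 and a median of 1.20 to 1.37. Of the 30 alternatives, near-copies included, Kmt2d had an interval above 1 in 29, Kmt2b in 27, Kmt2a in 17 and Setd1a in 10. The causes were not tested, save that fewer libraries give wider intervals. Depth limits the starts and single libraries, where a few fragments set a level. No paired analysis was possible because the table does not tie its libraries to the batches.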
